A study of Arabidopsis thaliana with 16 samples.

Results

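The MADS box transcription factor genes that give floral organs their identity were followed in whole seedlings of Arabidopsis thaliana rather than in flowers. The labels do not say whether any seedling had begun to form flowers. The set holds 10 named loci of the 33048 in the expression table, named for their known role in the flower: AP1 (AT1G69120), CAL (AT1G26310) and FUL (AT5G60910), AP3 (AT3G54340) and PI (AT5G20240), AG (AT4G18960), and SEP1 (AT5G15800), SEP2 (AT3G02310), SEP3 (AT1G24260) and SEP4 (AT2G03710). In the expression table FUL appears under its other name AGL8 and SEP4 under AGL3. Of the 10 loci, 9 passed the filter of at least 1 FPKM (fragments normalised to transcript length and library depth) in at least 2 of the 16 libraries, and CAL did not. AG, AP1, AP3, SEP1 and SEP2 passed it only through the clf or lhp1 libraries.

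In flowers these factors act in combination: AP1 with the SEP proteins specifies sepals, AP3 and PI are added in petals and stamens, and AG specifies stamens and carpels and ends the growth of the floral meristem. The SEP proteins bridge the others into the complexes that bind DNA. Before flowering most of these genes are kept silent by Polycomb group proteins, which place the histone mark H3K27me3 and read it, and AG and SEP3 are among the classic targets of this repression.

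Messenger RNA of whole seedlings was sequenced at 12 days, after growth at 23 °C under 16 h light and 8 h dark, with 2 libraries for each of 8 genotypes. The groups, each mutant represented by 1 allele or allele pair, were as follows. The aipp3 group carried aipp3-1, a T-DNA insertion in the gene of the BAH protein AIPP3, which reads H3K27me3. The cpl2 group carried the T-DNA allele cpl2-2 of an RNA polymerase II phosphatase. The aipp2paipp2 group combined the T-DNA allele aipp2-1 with paipp2-1, an allele made with CRISPR/Cas9, so that both paralogous PHD protein genes were mutated, while aipp2 and paipp2 carried 1 of these alleles each. These 4 proteins form the BAH-PHD-CPL2 (BPC) complex. The clf group carried clf-81, in the gene of an H3K27 methyltransferase, the lhp1 group carried lhp1-3, in the gene of an H3K27me3 reader, and Col-0 is the wild type. The comparisons ask how far the floral genes depend on each of these proteins for their low seedling level.

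The genes lie on all 5 chromosomes. In the RefSeq annotation of the TAIR10.1 build, AG occupies chr4:10382856-10388539 on the plus strand and has 10 exons, and its longest intron spans 2999 bases, where the other members' longest introns span 276 to 1342 bases. SEP3 lies at chr1:8593536-8596123 on the minus strand, SEP2 at chr3:464279-467151 on the minus strand, SEP1 at chr5:5151334-5154253 on the minus strand and SEP4 at chr2:1129229-1131838 on the plus strand. AP1 lies at chr1:25982294-25986349, CAL at chr1:9099994-9103644, FUL at chr5:24502434-24506269 and AP3 at chr3:20119140-20121314, all on the minus strand, and PI at chr5:6828904-6831515 on the plus strand. The 250 bases before the annotated start of each gene are shown here for 3 members whose levels in clf and lhp1 follow different patterns, AG at chr4:10382606-10382855 (plus strand), SEP2 at chr3:467152-467401 (minus strand) and SEP3 at chr1:8596124-8596373 (minus strand). They are printed 5′ to 3′ on the strand of the gene, with GAGAGA or its reverse complement in capitals.
AG: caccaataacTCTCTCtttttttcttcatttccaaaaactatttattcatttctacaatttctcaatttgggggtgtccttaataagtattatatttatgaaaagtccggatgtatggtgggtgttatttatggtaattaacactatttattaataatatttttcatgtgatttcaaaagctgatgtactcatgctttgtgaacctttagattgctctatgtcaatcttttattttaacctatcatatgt
SEP2: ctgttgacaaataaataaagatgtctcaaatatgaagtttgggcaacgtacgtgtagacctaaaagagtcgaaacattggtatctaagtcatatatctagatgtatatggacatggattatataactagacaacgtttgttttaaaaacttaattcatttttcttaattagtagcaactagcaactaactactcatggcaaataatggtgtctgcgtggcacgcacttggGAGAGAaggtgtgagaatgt
SEP3: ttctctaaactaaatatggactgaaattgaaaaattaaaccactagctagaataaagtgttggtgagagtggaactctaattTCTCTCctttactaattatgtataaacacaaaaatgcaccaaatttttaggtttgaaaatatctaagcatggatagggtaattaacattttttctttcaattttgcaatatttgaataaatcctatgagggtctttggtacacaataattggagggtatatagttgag
The letters GAGAGA, searched on both strands with overlapping matches counted, occurred in the windows of 5 of the 10 members (AG, PI, SEP2, SEP3 and SEP4), and in 20.6% of 27443 windows of the same length before all protein-coding genes. The CArG box, the sequence that MADS proteins bind, was searched only in its strict form, a run of A or T between CC and GG. That form was found in 0 of 10 member windows and in 2.52% of all windows, and variant forms were not searched. The telobox AAACCCTA was also found in 0 of 10, against 4.49% of all windows. These are matches of letters only.

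AP1, CAL and FUL share a stretch in their windows. It is shown because these 3 genes are paralogs, with capitals for the 17 of 36 positions that are identical in all 3, at chr1:25986365-25986400 for AP1, chr1:9103715-9103750 for CAL and chr5:24506369-24506404 for FUL (minus strand each).
AP1: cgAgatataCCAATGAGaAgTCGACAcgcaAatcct
CAL: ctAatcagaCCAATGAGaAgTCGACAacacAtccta
FUL: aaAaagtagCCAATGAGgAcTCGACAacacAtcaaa
The longest identical run between the windows of AP1 and CAL was 18 bases, that between CAL and FUL 13 bases and that between AP1 and FUL 8 bases. In the other 42 pairs of members, SEP1 with SEP2 (7 bases) among them, the longest run had a median of 8 and a maximum of 12 bases.

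The steps of the lowest values corresponded to 19200000 to 27100000 fragments per library, so that 3 fragments equal at most 0.102 FPKM for AG and at most 0.192 FPKM for FUL. Pearson's r between the libraries of a genotype, on log2(FPKM + 0.5) over the 19895 genes tested, was 0.987 to 0.992 except in aipp2paipp2, where it was 0.942. AIPP3 averaged 5.42 FPKM in aipp3 and 23.2 in Col-0, CPL2 averaged 6.06 in cpl2 and 14.7 in Col-0, and AIPP2 averaged 1.37 in aipp2paipp2 and 5.34 in Col-0. AIPP2 in aipp2 (3.94 FPKM), PAIPP2 in paipp2 (7.22, against 10.9 in Col-0), CLF in clf (7.58, against 9.96) and LHP1 in lhp1 (6.37, against 9.59) stayed at 66.1% to 76.1% of Col-0, so that transcript level alone does not check those labels. AIPP2 was at 73.8% of Col-0 in aipp2 but at 25.7% in aipp2paipp2, though both carry aipp2-1, and the reason was not tested. Stamen and ovule differentiation markers were at 0.26 FPKM or less in every library for all 8 genes, among them A9, AMS and the ovule gene INO. The libraries came from whole seedlings, in which fewer cells expressing a gene and less RNA per cell cannot be told apart. The labels do not say whether the libraries of a genotype came from separate cultures, so p-values measure the spread between these libraries. That spread was estimated over all 8 genotypes together, not from the genotypes compared alone.

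The summed level of the floral genes was highest in clf and lhp1, mostly through SEP3, while single members had other orders. Summed over the 10 members, the level was 163 and 155 FPKM in the clf libraries and 146 and 144 in the lhp1 libraries. The sum reached 23.6 and 21.0 FPKM with both PHD genes mutated (aipp2paipp2), 20.5 and 17.6 in cpl2 and 13.5 and 13.2 in aipp3. The single PHD mutants had 8.55 and 9.15 FPKM (aipp2) and 13.3 and 11.5 FPKM (paipp2), against 6.13 and 8.30 in Col-0. No library of these 7 mutants lay below the higher Col-0 library. SEP3 alone made up 66.0% of the sum in clf and 62.3% in lhp1. The next member was AG in clf, at 16.9%, and SEP1 in lhp1, at 7.55%, whereas in Col-0 SEP4 and SEP3 held 40.1% and 31.6%.

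**Figure D1:**
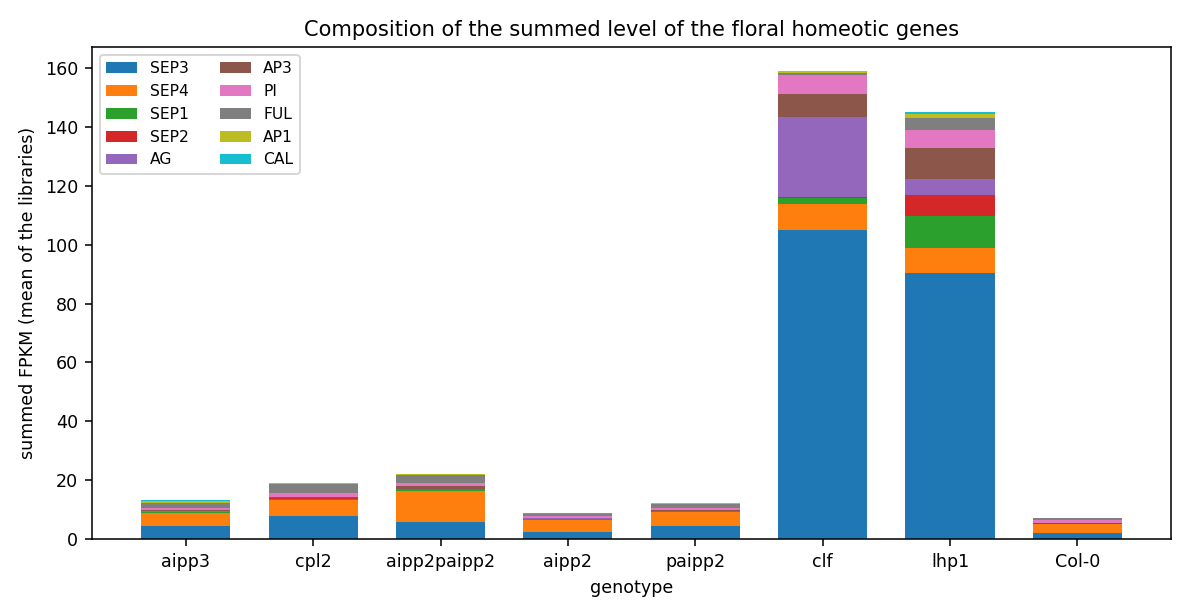
Mean FPKM of the 10 members, stacked within each genotype (y axis, summed FPKM, mean of the 2 libraries; x axis, genotype). The clf and lhp1 bars reach 159 and 145 and are mostly SEP3, the other mutants reach 8.85 to 22.3, and Col-0 reaches 7.22.

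**Figure D2:**
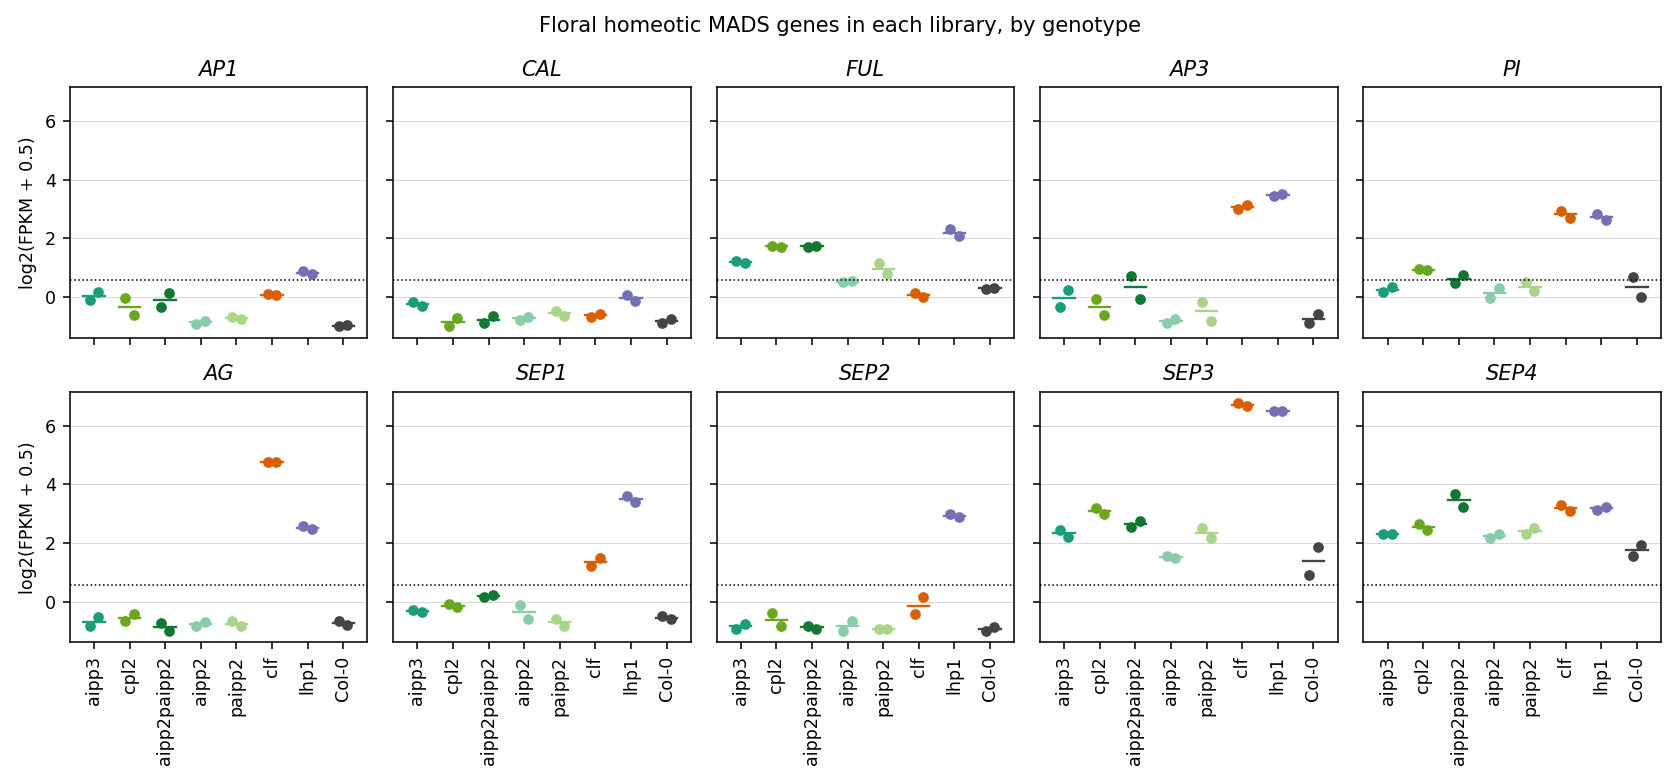
Level of each member in every library on the log2(FPKM + 0.5) scale (points, 2 per genotype; short lines, their mean; dotted line, 1 FPKM). AG, AP3, PI and SEP3 stand high in both clf and lhp1, SEP2 in lhp1 alone, and FUL is lowest in clf.

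Among the AP1, CAL and FUL genes, which promote the start of flower formation and specify the outer organs, the levels were low and each gene had its own order of genotypes. AP1, the gene that gives floral meristems their identity, was listed at 0.57 and 0.54 FPKM in clf and at 1.35 and 1.22 in lhp1. It had 0.44 and 0.62 FPKM in aipp3, 0.47 and 0.15 in cpl2, 0.30 and 0.61 in aipp2paipp2, 0.03 and 0.07 in aipp2 and 0.13 and 0.10 in paipp2, against 0.00 and 0.02 in Col-0. Every mutant library was above both Col-0 libraries, but those of Col-0, aipp2 and paipp2 all lay under 0.148 FPKM, the most that 3 fragments of AP1 amount to in any library, and only lhp1 reached 1 FPKM. On the log2(FPKM + 0.5) scale, which understates the change of such low genes, AP1 was higher than in Col-0 by 1.81 ± 0.25 in lhp1 (SE; limma adjusted p = 0.00051), by 1.05 ± 0.25 in clf (limma adjusted p = 0.0081) and by 1.01 ± 0.25 in aipp3 (limma adjusted p = 0.026). The clf call was lost without Col-0 replicate 1 (limma adjusted p = 0.051) and, under the 2-fold minimum at 0.62, with a pseudocount of 1.

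CAL, the paralog of AP1 with which it acts in the floral meristem, was the member that was not tested, with no library at 1 FPKM. Its highest values were 0.54 and 0.41 FPKM in lhp1 and 0.40 and 0.31 in aipp3, against 0.04 and 0.10 in Col-0. The other mutants lay between 0.00 and 0.22 FPKM, those of cpl2, aipp2paipp2 and aipp2 overlapping Col-0.

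FUL, which acts in meristem identity and later in the fruit, had a different order. It was listed at 4.47 and 3.72 FPKM in lhp1, 2.88 and 2.78 in cpl2, 2.80 and 2.82 in aipp2paipp2, and 1.83 and 1.76 in aipp3. The libraries of paipp2 had 1.75 and 1.21 FPKM, those of aipp2 0.93 and 0.95 and those of clf 0.60 and 0.51, against 0.72 and 0.75 in Col-0, so that clf lay below the wild type. Only cpl2 and aipp2paipp2 overlapped as neighbours in this order. The mean was 5.57-fold that of Col-0 in lhp1, 3.85-fold in cpl2 and 3.82-fold in aipp2paipp2, with log2 changes of 1.89 ± 0.16 (limma adjusted p = 2.4e-05), 1.43 ± 0.16 (limma adjusted p = 0.0005) and 1.42 ± 0.16 (limma adjusted p = 0.00015). The clf difference of -0.23 ± 0.16 did not pass the test (limma adjusted p = 0.33).

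The genes of petal and stamen identity, AP3 and PI, whose proteins act as a pair, rose together in clf and lhp1. AP3 had 7.47 and 8.41 FPKM in clf and 10.3 and 10.9 in lhp1, against 0.04 and 0.17 in Col-0. Both mutants were clear of every other genotype, the highest other library being 1.16 FPKM in aipp2paipp2, whose second library had 0.45. PI had 7.20 and 5.99 FPKM in clf and 6.64 and 5.70 in lhp1, against 1.11 and 0.50 in Col-0, and the ranges of clf and lhp1 overlapped. The log2 change of AP3 was 3.81 ± 0.32 in clf (limma adjusted p = 7.4e-06) and 4.21 ± 0.32 in lhp1 (limma adjusted p = 1.1e-05). That of PI was 2.48 ± 0.24 in clf (limma adjusted p = 2e-05) and 2.39 ± 0.24 in lhp1 (limma adjusted p = 5.6e-05), or 8.19-fold and 7.66-fold the Col-0 mean. In aipp3, cpl2 and aipp2paipp2 PI lay between 0.62 and 1.42 FPKM, and its largest difference there, 0.59 in cpl2, did not pass the test.

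AG, the gene of stamen and carpel identity, changed strongly in clf and less in lhp1. It had 27.0 and 26.7 FPKM in clf and 5.47 and 5.05 in lhp1, against 0.14 and 0.08 in Col-0. The remaining 5 mutants lay between 0.00 and 0.24 FPKM and overlapped Col-0. The log2 change was 5.49 ± 0.19 in clf (limma adjusted p = 2.9e-08) and 3.24 ± 0.19 in lhp1 (limma adjusted p = 1.5e-06), while in aipp3, cpl2 and aipp2paipp2 it was 0.03, 0.16 and -0.15.

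The SEP genes, which are needed for the identity of all the inner organs and act redundantly, did not behave as 1 group. SEP3 had the highest level of the set, at 108 and 102 FPKM in clf and 89.6 and 91.1 in lhp1. It had 8.61 and 7.38 FPKM in cpl2, 5.37 and 6.22 in aipp2paipp2, 5.01 and 4.11 in aipp3, 5.16 and 4.03 in paipp2, and 2.46 and 2.30 in aipp2, against 1.40 and 3.16 in Col-0. All mutants but aipp2 lay above both Col-0 libraries, which themselves differed more on the log2 scale than those of any other genotype. The SEP3 mean was 46.0-fold that of Col-0 in clf (log2 change 5.32 ± 0.24, limma adjusted p = 1.3e-07) and 39.6-fold in lhp1 (5.11 ± 0.24, limma adjusted p = 3.2e-07).

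SEP4, the member with the highest level in wild-type seedlings, had its highest values in aipp2paipp2. It was listed at 12.3 and 8.89 FPKM in aipp2paipp2, 9.44 and 8.08 in clf and 8.28 and 8.98 in lhp1, which overlapped one another. The other mutants formed a lower group, with 5.80 and 4.94 FPKM in cpl2, 4.41 and 5.18 in paipp2, 4.47 and 4.42 in aipp3 and 4.04 and 4.45 in aipp2, all above the 2.47 and 3.31 of Col-0. The mean was 3.67-fold that of Col-0 in aipp2paipp2 (log2 change 1.71 ± 0.17, limma adjusted p = 7e-05), 3.03-fold in clf (1.46 ± 0.17, limma adjusted p = 8.7e-05) and 2.99-fold in lhp1 (1.44 ± 0.17, limma adjusted p = 0.0002).

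SEP1 and SEP2 set lhp1 apart. SEP1 had 1.83 and 2.33 FPKM in clf, 11.8 and 10.1 in lhp1 and, in the next highest genotype, 0.61 and 0.66 in aipp2paipp2, against 0.21 and 0.16 in Col-0. SEP2 had 0.24 and 0.62 FPKM in clf, 7.41 and 6.86 in lhp1 and at most 0.27 in the other 5 mutants, against 0.00 and 0.05 in Col-0. The log2 change of SEP1 was 1.91 ± 0.21 in clf (limma adjusted p = 5.1e-05) and 4.06 ± 0.21 in lhp1 (limma adjusted p = 6.4e-07). SEP2 changed by 3.86 ± 0.26 in lhp1 (limma adjusted p = 4e-06), whereas its difference of 0.80 ± 0.26 in clf was under the 2-fold minimum (limma adjusted p = 0.037).

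**Figure D3:**
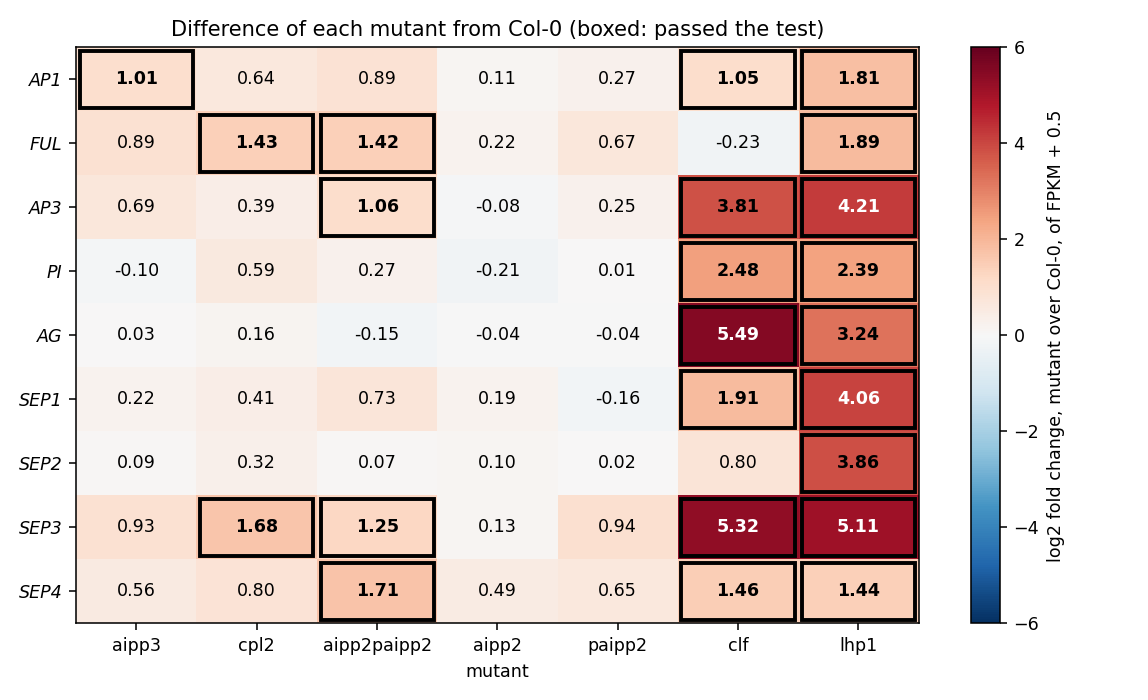
Log2 fold change of FPKM + 0.5 in each of the 7 mutants over Col-0 (columns) for the 9 members tested (rows), on a colour scale of -6 to 6; boxes mark an adjusted p under 0.05 with at least 2-fold. All 9 cells are boxed in lhp1 and 7 in clf, against 4 in aipp2paipp2, 2 in cpl2, 1 in aipp3 and 0 in aipp2 and paipp2.

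A member was counted as called where the limma adjusted p, over all genes tested, was under 0.05 and the change at least 2-fold. In lhp1, 9 of the 10 members were higher and 0 lower than in Col-0, where 2.80% of all genes tested were higher and 1.82% lower. In clf, 7 of 10 were higher and 0 lower, where 5.98% of all genes tested were higher and 2.55% lower. The median log2 change of the tested members was 3.24 in lhp1 and 1.91 in clf, where that of all genes tested was -0.01 and -0.06. Since 5 of the 9 were tested only because they were high in clf or lhp1, these medians describe the members and are no support for them, and a fit without the filter, in which all 10 were tested, gave the same 9 and 7. Both comparisons use the same Col-0 libraries.

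Marker genes of other tissues were measured beside these results. The summed root markers (5 genes) were 1890 to 2250 FPKM in clf and 1820 to 1910 in lhp1, against 1180 to 1300 in Col-0, with 4, 5 and 5 of the 5 at 1 FPKM or more in both libraries. The sum is nearly all PYK10. In clf the means of SCR (12.4, against 15.8 in Col-0), PLT1 (0.95, against 1.45) and COBL9 (4.09, against 5.48) were lower than in Col-0. That of RHD6 (3.75, against 3.17) was higher. In lhp1 the means of SCR (17.7), PLT1 (1.85) and RHD6 (3.99) were above those of Col-0, while COBL9 (5.57) overlapped Col-0. The summed leaf markers (4 genes) were 448 to 514 FPKM in clf and 834 to 845 in lhp1, against 690 to 751 in Col-0. Nearly all of this is CA1, while LHCB1.1 averaged 7.29 in clf and 3.25 in lhp1, against 7.71 in Col-0, and both RBCS genes had 0.40 FPKM or less in these genotypes. The shoot meristem markers (4 genes) were 9.10 to 10.6 in clf and 11.2 to 11.8 in lhp1, against 6.77 to 9.06 in Col-0. Of the leaf and of the shoot meristem markers 2 of 4 were at 1 FPKM or more in each of these genotypes, and no gene of the 3 lists was at 0 in both libraries of clf, lhp1 or Col-0. Their part in the results was not tested.

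The difference between clf and lhp1 was tested directly. In clf 1 of the 10 members was higher than in lhp1, AG, and 3 were lower, SEP1, SEP2 and FUL, where 3.29% of all genes tested were higher and 0.890% lower. AG in clf was 5.11-fold the lhp1 level (log2 difference 2.25 ± 0.19, limma adjusted p = 3.6e-05). The clf level was 0.0603 of the lhp1 level for SEP2 (-3.07 ± 0.26, limma adjusted p = 3.4e-05), 0.136 for FUL (-2.12 ± 0.16, limma adjusted p = 2.1e-05) and 0.190 for SEP1 (-2.15 ± 0.21, limma adjusted p = 9e-05). Neither library of clf overlapped those of lhp1 for these 4 genes, and each kept its call in all 13 alternative settings run, the fit without the filter among them. Of these, AG, SEP1 and SEP2 were tested only because they were high in clf or lhp1, SEP2 through lhp1 alone. The counts therefore describe the members and, set against the shares of all genes, are no support for a difference.

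For SEP3, SEP4, PI and AP3 the difference between clf and lhp1 did not pass the test. The 95% interval of the log2 difference, clf minus lhp1, ran from -0.30 to 0.73 for SEP3, from -0.36 to 0.39 for SEP4, from -0.43 to 0.60 for PI and from -1.09 to 0.29 for AP3, whose libraries in clf lay below those in lhp1. AP1 had a difference of -0.76 ± 0.25 that did not pass the test (limma adjusted p = 0.061).

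**Figure D4:**
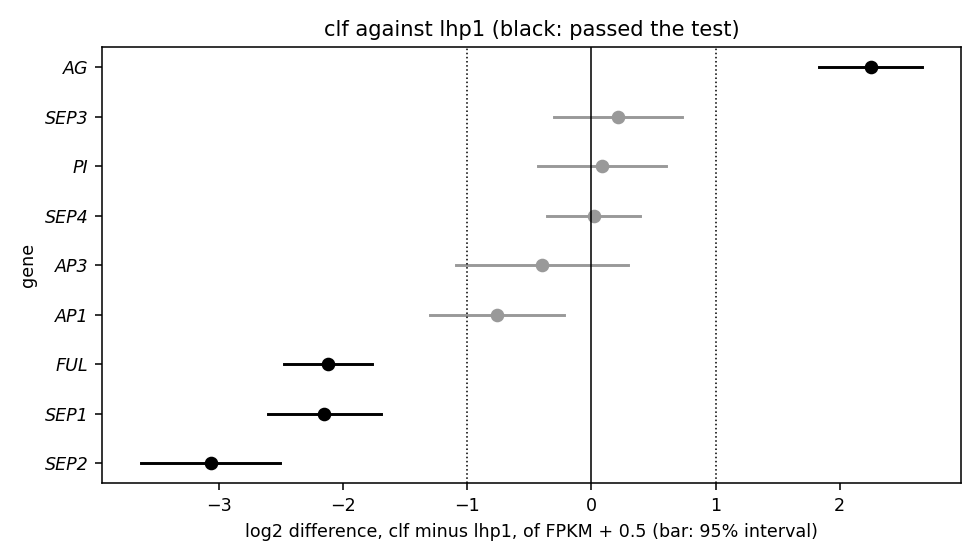
Log2 difference of FPKM + 0.5, clf minus lhp1, for the 9 members tested (points) with its 95% interval (bars); dotted lines mark 2-fold and black marks passed the test. AG lies at 2.25, SEP1, FUL and SEP2 at -2.12 to -3.07, and SEP3, SEP4, PI and AP3 have intervals that include 0.

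In the mutants of the BPC complex fewer members passed the test, FUL and SEP3 in both cpl2 and aipp2paipp2, SEP4 and AP3 in aipp2paipp2 and AP1 in aipp3. In cpl2, 2 of the 10 members were higher, SEP3 and FUL, and 0 lower, where 2.71% of all genes tested were higher and 0.332% lower. SEP3 was 3.51-fold the Col-0 mean (log2 change 1.68 ± 0.24, limma adjusted p = 0.0017), a call that ended when only cpl2 and Col-0 were fitted (limma adjusted p = 0.063). SEP4, at 1.86-fold the Col-0 mean (0.80 ± 0.17, limma adjusted p = 0.016), was under the 2-fold minimum.

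In aipp2paipp2, 4 of the 10 members were higher, SEP4, FUL, SEP3 and AP3, and 0 lower, where 6.44% of all genes tested were higher and 1.28% lower. Besides SEP4 and FUL, SEP3 changed by 1.25 ± 0.24 (2.54-fold, limma adjusted p = 0.0034) and AP3 by 1.06 ± 0.32 (limma adjusted p = 0.032). When only aipp2paipp2 and Col-0 were fitted, the count was 0, and over all genes tested 176 were higher and 7 lower, in place of 1282 and 254. Without aipp2paipp2 replicate 2 the genes called numbered 2289 higher and 1099 lower. Without Col-0 replicate 1 it was 2, with SEP3 and AP3 no longer called. AP3 also lost its call without Col-0 replicate 2 and without aipp2paipp2 replicate 1, its higher library.

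In aipp3, 1 of the 10 members was higher, AP1, and 0 lower, where 3.14% of all genes tested were higher and 0.251% lower. The AP1 call ended under 8 of 14 alternative settings, among them leaving out either library of either genotype. FUL (0.89 ± 0.16, limma adjusted p = 0.0066) and SEP3 (0.93 ± 0.24, limma adjusted p = 0.03) were 2.44-fold and 2.00-fold the Col-0 mean and fell short of 2-fold on the scale of the test. SEP3 passed it without Col-0 replicate 2, the library with the higher SEP3 value, at a log2 change of 1.41.

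The single PHD mutants had no called member. In aipp2, 0 of 10 were called, where 0.00503% of all genes tested were higher and 0% lower by limma, and 1 member, SEP4, had an unadjusted p under 0.05 (0.49 ± 0.17, limma adjusted p = 1). In paipp2, 0 of 10 were called, where 0.131% were higher and 0.0352% lower, and 3 members had an unadjusted limma p under 0.05. These were SEP3 (0.94 ± 0.24), FUL (0.67 ± 0.16) and SEP4 (0.65 ± 0.17), with limma adjusted p = 0.12, 0.11 and 0.14. SEP3 was called in paipp2 without Col-0 replicate 2, at a log2 change of 1.41.

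Scaling bears on the counts over all genes in these mutants. Quantile normalization moved the median log2 change of all genes tested by -0.104 for aipp3 and by -0.109 for the aipp2paipp2 double mutant. It gave 416 genes higher and 94 lower in aipp3, in place of 624 and 50, and 1040 higher and 429 lower in aipp2paipp2, in place of 1282 and 254. Under it FUL changed by 1.18, SEP3 by 1.09 and SEP4 by 1.58 in aipp2paipp2, all still called, while AP1 in aipp3 (0.79) and AP3 in aipp2paipp2 (0.66) were not. The summed seed maturation markers (6 genes) were also higher than in Col-0 in aipp2paipp2, cpl2, aipp3 and paipp2, mostly through the storage protein gene CRA1. The sums were 58.9 to 130 FPKM for aipp2paipp2, 7.53 to 26.7 for cpl2, 3.17 to 9.03 for aipp3 and 8.19 to 34.4 for paipp2, against 0.25 to 0.65 in Col-0. In both libraries 3, 2, 1 and 1 of the 6 were at 1 FPKM or more, against 0 in Col-0. LEC1 was at 0 in both libraries of each of these genotypes, and OLEO1 was so in Col-0. ABI3 and FUS3 had 0.39 FPKM or less in every library, and SESA1 in aipp3 (0.26 and 1.04) overlapped Col-0 (0.53 and 0.17). Their part in the results was not tested.

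The loss of both PHD proteins was compared with the mean of the aipp2 and paipp2 mutants. AIPP2 itself averaged 3.94 FPKM in aipp2 and 1.37 in aipp2paipp2, so that these mutants were unlike in that transcript too. In aipp2paipp2 1 of the 10 members was higher than in that mean, SEP4, and 0 were lower, where 5.38% of all genes tested were higher and 1.32% lower. Quantile normalization gave 933 higher and 401 lower in place of 1071 and 263. SEP4 differed by 1.13 ± 0.15 (limma adjusted p = 0.00033), and without aipp2paipp2 replicate 1 by 0.91, under 2-fold. FUL (0.98 ± 0.14, limma adjusted p = 0.00057), AP3 (0.98 ± 0.27, limma adjusted p = 0.022), SEP3 (0.72 ± 0.21, limma adjusted p = 0.023), SEP1 (0.71 ± 0.18, limma adjusted p = 0.013) and AP1 (0.70 ± 0.21, limma adjusted p = 0.031) were higher by less than 2-fold.

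Set against the clf and lhp1 mean, the mean of aipp3, cpl2 and aipp2paipp2 was lower for 6 of the 10 members and higher for 0, where 2.25% of all genes tested were lower and 3.71% higher. Quantile normalization gave 580 genes higher and 547 lower in place of 739 and 448. The 6 were AG (-4.35 ± 0.12), SEP3 (-3.92 ± 0.15), AP3 (-3.29 ± 0.20), SEP1 (-2.53 ± 0.13), PI (-2.18 ± 0.15) and SEP2 (-2.17 ± 0.16), with limma adjusted p between 2.9e-09 and 2.1e-06. Of these, AG, AP3, SEP1 and SEP2 were tested only because they were high in clf or lhp1. The count therefore describes the members and is no support for a difference. FUL went the other way against that mean, higher by 0.42 ± 0.10 (limma adjusted p = 0.0073), less than 2-fold. The mean joins unlike levels, since FUL averaged 0.555 FPKM in clf and 4.09 in lhp1. Its averages of 2.83 in cpl2, 2.81 in aipp2paipp2 and 1.79 in aipp3 lay above clf but below lhp1.

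Among 25 other genes of the floral pathway, which act upstream of the homeotic genes, beside them or on their targets, 12 were tested. In clf, 5 of the 25 were higher and 1 lower than in Col-0, where 5.98% of all genes tested were higher and 2.55% lower. The higher ones included the closest relatives of AG, with SHP2 at 4.45 and 4.69 FPKM in clf, against 0.00 and 0.03 in Col-0, and STK, which specifies ovules, at 1.80 and 2.40 in clf, against 0.02 and 0.02 in Col-0. SHP2 changed by 3.30 ± 0.22 (limma adjusted p = 1.4e-06), STK by 2.31 ± 0.23 (limma adjusted p = 2.2e-05) and SHP1, which with SHP2 forms the dehiscence zone of the fruit, by 1.62 ± 0.24 (limma adjusted p = 0.00047). AGL79, a relative of FUL, changed by 1.32 ± 0.27 and the flowering promoter AGL24 by 1.19 ± 0.21. SVP, a repressor of flowering, fell by 1.30 on the log2 scale to 10.2 and 11.4 FPKM in clf, against 25.9 and 29.1 in Col-0. Of the higher genes, SHP1, SHP2, STK and AGL79 were tested only because they were high in clf or lhp1. The count of higher genes therefore describes the list and is no support for a difference.

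In lhp1, 2 of the 25 were higher and 1 lower, where 2.80% of all genes tested were higher and 1.82% lower. SHP2 had 1.70 and 2.18 FPKM in lhp1 (log2 change 2.24 ± 0.22, limma adjusted p = 5.3e-05) and SHP1 had 1.41 and 1.05 (1.28 ± 0.24, limma adjusted p = 0.0039). As SHP1 and SHP2 were tested only because they were high in clf or lhp1, their count is a description and no support for a difference. The lower gene was NAP, a NAC factor first described as a target of AP3 and PI and active in leaf senescence, with 1.18 and 0.93 FPKM in lhp1, against 4.26 and 4.01 in Col-0.

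In each of aipp3, cpl2 and aipp2paipp2 1 of the 25, of which 12 were tested, was higher and 0 lower. Of all genes tested 3.14%, 2.71% and 6.44% were higher, and a single gene is too few to set against these shares. In aipp2 and paipp2 0 of the 25 were called by limma, with 1 and 3 of them at an unadjusted p under 0.05. NAP was the gene in aipp3, at 23.4 and 20.4 FPKM (2.27 ± 0.22, limma adjusted p = 0.0003), and in cpl2, at 12.3 and 13.5 (1.53 ± 0.22, limma adjusted p = 0.0021). It was also high in aipp2, at 8.80 and 13.4 FPKM (1.29 ± 0.22), but was not called there (limma adjusted p = 0.21). NAP changed by 0.61 ± 0.22 in paipp2 and by 0.06 ± 0.22 in aipp2paipp2. In aipp2paipp2 the called gene was SOC1, a flowering integrator, at 46.6 and 25.3 FPKM in aipp2paipp2, against 14.4 and 14.1 in Col-0 (1.24 ± 0.20, limma adjusted p = 0.0014). That call was lost when only aipp2paipp2 and Col-0 were fitted and without aipp2paipp2 replicate 1. SOC1 was also higher, by less than 2-fold, in cpl2, at 29.4 and 27.5 FPKM (0.97 ± 0.20, limma adjusted p = 0.014), and in aipp3, at 29.5 and 25.4 FPKM (0.92 ± 0.20, limma adjusted p = 0.017). LFY, which switches AP1 on in floral meristems, had 0.70 FPKM or less in every library, with its highest mean in lhp1, at 0.43 and 0.70, against 0.14 and 0.26 in Col-0.

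**Figure D5:**
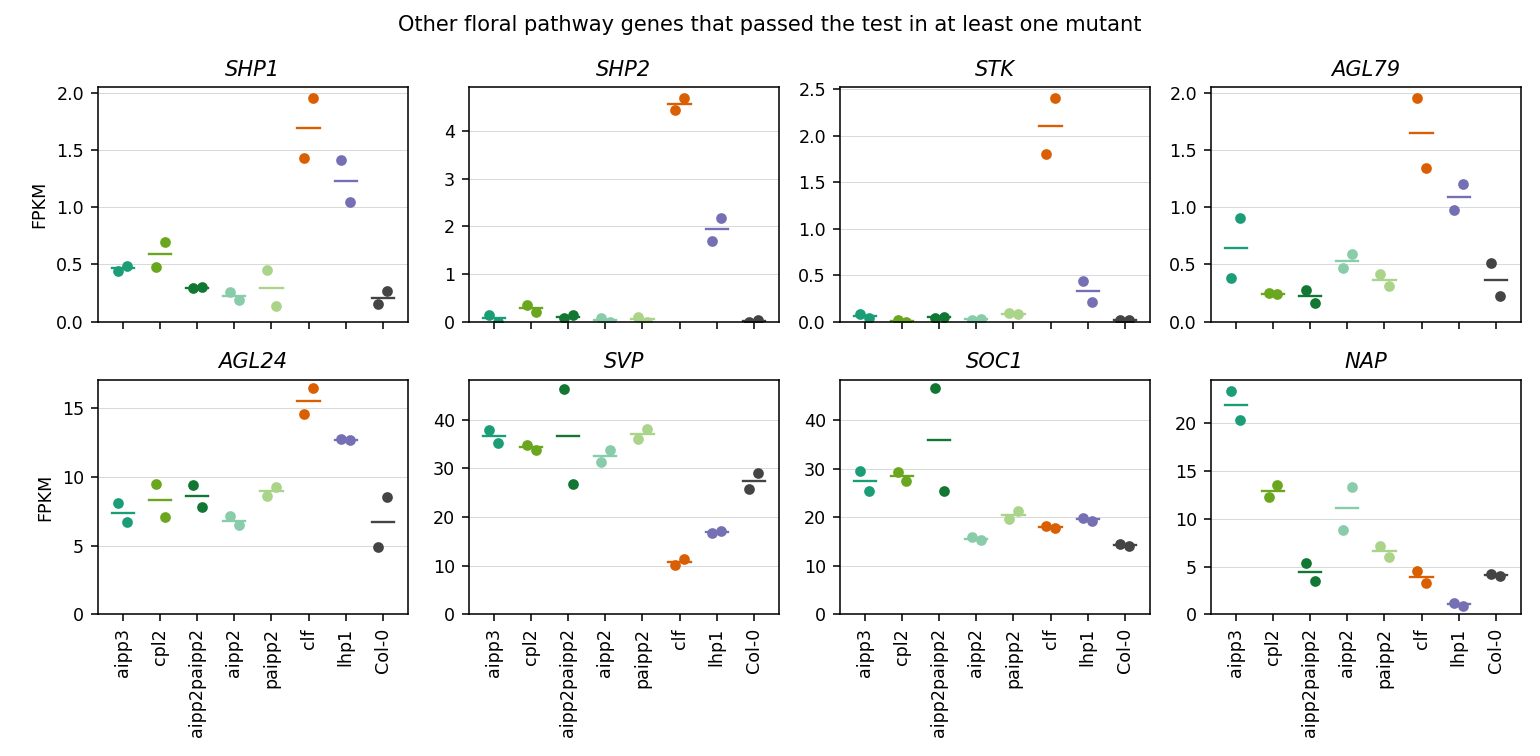
FPKM of the 8 other floral pathway genes called in at least 1 mutant (points, 2 libraries per genotype; short lines, their mean; each panel has its own linear axis from 0). SHP1, SHP2, STK and AGL24 are highest in clf, SVP is lowest in clf, and NAP is highest in aipp3 and lowest in lhp1.

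The genes outside the set whose log2(FPKM + 0.5) followed each member most closely over the 16 libraries were also listed, as a description in which libraries share genotypes and so are not independent. For AG the closest was CYP709B1, a cytochrome P450 gene (Pearson r = 0.995), and for SEP3 it was NPF5.1 (r = 0.987). For SEP2 it was AT4G05475 (r = 0.990), which was also among the closest 3 of SEP1 (r = 0.961). AT3G49270 was the closest to PI (r = 0.965) and among the closest 3 of AP3 (r = 0.968). FUL and AP1 had no such close follower, with highest values of r = 0.858 for PID2 and r = 0.897 for AT4G30650.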

How the data were processed

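Paired-end mRNA-seq libraries from whole seedlings, 2 for each of 8 genotypes, were analysed from 1 table of FPKM values that the authors deposited, written to 2 decimals. Reads had been trimmed by the authors with SeqPrep and Sickle, and the submitters' processing notes name TopHat, Bowtie, RSEM and edgeR without versions or roles. The genome build of the RNA-seq was not given in the sources used here. FPKM values are per transcript length, but comparisons of level between genes are only approximate. In Col-0, for example, RBCS1A averaged 0.345 and RBCS3B 0.045 FPKM, where CA1 averaged 713, and the reason was not tested. FPKM values are not counts, and no count test was used.

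Values were taken as log2(FPKM + 0.5) without further scaling. The 19895 of 33048 genes that reached 1 FPKM in 2 or more libraries were fitted with limma 3.58.1 in R 4.3.3, all 8 genotypes together and with a trended prior (8 residual degrees of freedom). Benjamini-Hochberg adjustment covered all genes tested, and calls required an adjusted p under 0.05 together with a change of 2-fold or more. Library depth was read from the steps of low values, of which 96.6% to 98.6% fell within 0.2 fragments of a whole number in each library. Depth in fragments is therefore an estimate. Scripts were tested on simulated data.

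The named genes were the 10 members, the floral pathway genes called in at least 1 mutant, and, as a description, the 3 other tested genes with the highest Pearson r to each called member. The members and the lists were chosen with earlier results of these data known. Gene positions and upstream sequences came from RefSeq on TAIR10.1, in which 32547 of the 33048 locus identifiers were found. Alternatives were pseudocounts of 0.1 and 1, no filter, quantile normalization, median-ratio scaling, a fit of only the genotypes compared, an untrended prior, a replicate block, no fold minimum and each library left out. A fit without aipp2paipp2 and a crossed replicate block were added after seeing the data.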

Additional observations from a re-analysis of the deposited data

Results flagged for a closer look

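The effects of clf and lhp1 on 4 members differed by the test of the difference itself. The log2 difference of FPKM + 0.5, clf minus lhp1, was 2.25 for AG, -2.15 for SEP1, -2.12 for FUL and -3.07 for SEP2. AG thus stood higher in clf, at 27.0 and 26.7 FPKM in clf and 5.47 and 5.05 in lhp1. SEP1, SEP2 and FUL stood lower in clf, and for FUL the clf libraries (0.60 and 0.51 FPKM) also lay below those of Col-0 (0.72 and 0.75). SEP1, SEP2 and FUL thus went the opposite way to AG. AG, SEP1 and SEP2 had passed the filter only through the clf or lhp1 libraries. What sets the 4 genes apart was not tested.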

How the results depend on the processing

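The lhp1 count of 9 higher members, the clf count of 7 and the clf against lhp1 counts of 1 higher and 3 lower stayed within 1.5 times under every alternative. The cause of the other changes was not tested. The aipp3 count of 1 became 3 with a pseudocount of 0.1 and with no fold minimum, and 0 with a pseudocount of 1, quantile normalization, median-ratio scaling or only the genotypes compared. With only the genotypes compared, the cpl2 count of 2 became 1 and the aipp2paipp2 count of 4 became 0. Against the mean of aipp2 and paipp2, the count of 1 became 5 with a pseudocount of 0.1 and 6 with no fold minimum. In the BPC against clf and lhp1 comparison, no fold minimum raised the count of higher members to 1. Over all genes tested, leaving out Col-0 replicate 1 lowered the higher calls to 295 in aipp3, 266 in cpl2 and 349 in lhp1. Leaving out each library in turn gave 0 to 1 members in aipp3, 2 to 4 in aipp2paipp2, 0 to 1 in paipp2, 6 to 8 in clf and 0 to 3 in aipp2paipp2 against its single mutants. With each library left out, the log2 fold change ranged from -0.346 to 0.600 for SEP3 in aipp2, and in clf against lhp1 from -0.0359 to 0.211 for PI and from -0.0886 to 0.124 for SEP4, so that these values, none of which had passed the test, turned direction.

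For the floral pathway list, no fold minimum gave 2 higher genes in aipp3, 2 in cpl2, 2 in aipp2paipp2 and 4 in lhp1, and 2 lower in clf and 2 in lhp1. The lhp1 count of 2 higher became 4 with a pseudocount of 0.1 and 1 with a pseudocount of 1. The aipp2paipp2 count became 0 with only the genotypes compared and ranged over 0 to 1 with each library left out. Deviations of same-numbered libraries from their group means correlated at -0.218 to 0.059, so the numbers were not taken to pair the samples, and a replicate block left the counts at 1, 2, 4, 0, 0, 7 and 9 for aipp3, cpl2, aipp2paipp2, aipp2, paipp2, clf and lhp1. The crossed pairing in aipp3, cpl2, paipp2 and lhp1 gave 1, 2, 0 and 9. Depth limits AG, AP1, CAL, AP3, SEP1 and SEP2 outside clf and lhp1, where many values lie near 3 fragments.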
